A study of Mus musculus with 12 samples.

Results

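The CXC and CX3C chemokines are small secreted or cell surface proteins that direct white blood cells. The members were taken by gene symbol from the kidney RNA-seq matrices, namely Cxcl1, Cxcl2, Cxcl3, Cxcl5, Cxcl9, Cxcl10, Cxcl12, Cxcl14, Cxcl16 and Cx3cl1, which are 10 of the 24421 symbols measured, and each of the 10 had a row. Where a symbol had several transcript rows, the row with the highest total count was used, which concerned Cxcl12 only (3 rows). Levels are given in FPKM, which scales fragments by transcript length and by library depth, so that genes of different length can be compared.

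The 4 members with a glutamate-leucine-arginine motif (Cxcl1, Cxcl2, Cxcl3 and Cxcl5) bind Cxcr2 and draw neutrophils into injured tissue. Cxcl9 and Cxcl10 are induced by interferons and attract activated T cells and NK cells through Cxcr3, while Cxcl12 acts on Cxcr4 and is scavenged by Ackr3. Cxcl16 and Cx3cl1 are made as membrane proteins on a mucin-like stalk and are shed by Adam10 and Adam17; their receptors are Cxcr6 and Cx3cr1.

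Whole kidneys came from male C57BL/6 mice aged 6 weeks, either wild type (WT) or labelled Tet2-/-, a loss of the methylcytosine dioxygenase Tet2, with both genotypes bred from Tet2+/- parents of a C57BL/6J background. Each genotype contributed 3 kidneys at baseline, from mice with no operation, and 3 kidneys at 24 h after renal ischemia-reperfusion (IR), for which the right renal pedicle was clamped for 60 min and the left kidney removed. All 4 groups thus held 3 libraries, and no sham-operated kidney was analysed here. In whole tissue, a lower level can reflect fewer cells of a type or less RNA per cell, and these cannot be told apart.

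The 12 libraries held between 51007362 and 107969879 counts over 1 row per symbol. Tet2 itself was at 6.25 to 9.15 FPKM in the WT baseline kidneys and at 9.24 to 16.6 FPKM in the baseline kidneys labelled Tet2-/-. After IR it was at 3.86 to 9.34 FPKM in WT and 1.76 to 3.20 FPKM in the Tet2-/- label. The count covers the whole transcript and the deleted exons are not given in the sources used here, so it does not check the label, and genotypes are called by their label throughout. All 8 proximal tubule markers were above 1 FPKM at the median of the libraries. WT IR replicate 1 stood apart, with a summed level of 5 tubular injury markers of 483 FPKM against 1183 and 1452 FPKM in the other WT IR kidneys. The summed level of 8 adipocyte markers was 138 and 279 FPKM in WT baseline replicates 2 and 3 and 602 FPKM in IR replicate 3 of the Tet2-/- label, against 15.0 to 114 FPKM elsewhere. A fit without both of these WT baseline libraries leaves that group with 1 library, which is then assumed to vary like the other groups. It called 0 genes higher and 1 lower of all genes after IR in WT and 2 higher and 8 lower in the interaction, so that a call lost in it says nothing about the gene, and only its fold changes are given.

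Of the 6 members on chromosome 5, Cxcl1, Cxcl2, Cxcl3 and Cxcl5 share a short promoter sequence, and Cxcl10 holds a variant of it. Their promoters are shown because the members with the largest fold change after IR in the kidneys labelled Tet2-/-, Cxcl3, Cxcl5 and Cxcl2, are among them, and the promoter of Cxcl12, which fell, is shown for comparison. Each sequence holds the 250 bases before the transcript start in the mouse mm9 genome, written 5′ to 3′ on the strand of the gene, and capitals mark matches on either strand to a loose form of the NF-kB site (GGG, any 5 bases, then CC) or to the core of the interferon-stimulated response element, ISRE (GAAA, any 2 bases, then GAAA).
Cxcl1 promoter (chr5:91320021-91320270, plus strand): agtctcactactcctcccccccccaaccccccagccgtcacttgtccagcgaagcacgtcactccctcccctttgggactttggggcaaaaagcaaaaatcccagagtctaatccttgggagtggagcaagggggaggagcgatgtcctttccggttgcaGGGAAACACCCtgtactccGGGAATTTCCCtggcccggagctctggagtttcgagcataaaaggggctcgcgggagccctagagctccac
Cxcl2 promoter (chr5:91332675-91332924, plus strand): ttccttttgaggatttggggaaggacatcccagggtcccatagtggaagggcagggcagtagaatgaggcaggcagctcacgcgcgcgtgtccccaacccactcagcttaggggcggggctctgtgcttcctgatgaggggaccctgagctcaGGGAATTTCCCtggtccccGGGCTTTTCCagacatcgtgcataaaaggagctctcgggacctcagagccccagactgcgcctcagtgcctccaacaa
Cxcl3 promoter (chr5:91214877-91215126, plus strand): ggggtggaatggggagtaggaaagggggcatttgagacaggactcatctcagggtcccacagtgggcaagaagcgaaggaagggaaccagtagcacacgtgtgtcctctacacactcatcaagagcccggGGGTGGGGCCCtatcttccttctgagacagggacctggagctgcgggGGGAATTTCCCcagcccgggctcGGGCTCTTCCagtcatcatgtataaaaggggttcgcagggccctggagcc
Cxcl5 promoter (chr5:91188074-91188323, plus strand): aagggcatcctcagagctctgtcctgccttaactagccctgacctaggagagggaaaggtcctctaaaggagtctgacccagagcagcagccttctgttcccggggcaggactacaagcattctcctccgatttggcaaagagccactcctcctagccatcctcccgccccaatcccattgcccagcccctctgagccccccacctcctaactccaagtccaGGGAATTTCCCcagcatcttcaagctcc
Cxcl10 promoter (chr5:92777916-92778165, minus strand): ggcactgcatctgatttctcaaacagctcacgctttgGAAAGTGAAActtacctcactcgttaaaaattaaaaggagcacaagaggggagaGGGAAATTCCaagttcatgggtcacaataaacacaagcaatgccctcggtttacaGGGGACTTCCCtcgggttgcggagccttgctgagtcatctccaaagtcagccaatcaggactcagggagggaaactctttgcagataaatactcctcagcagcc
Cxcl12 promoter (chr6:117118303-117118552, plus strand): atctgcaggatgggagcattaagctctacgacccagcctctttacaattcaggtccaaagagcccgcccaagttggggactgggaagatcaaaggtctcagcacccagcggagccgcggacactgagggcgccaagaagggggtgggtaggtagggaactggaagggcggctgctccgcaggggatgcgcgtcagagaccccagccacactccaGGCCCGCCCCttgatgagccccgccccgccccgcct

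The stricter NF-kB form (GGGAA, any base, then TTCC) was found on either strand in the promoters of Cxcl1, Cxcl2, Cxcl3, Cxcl5 and Cxcl10, that is in 5 of 10 members. Among the 24351 promoters of the same length that could be read, 76 held it (0.312%). Every strict match also counts as a loose match. The first 4 of these carried the same letters, GGGAATTTCC, starting 71 bases before the start of Cxcl1, 97 bases before Cxcl2, 73 bases before Cxcl3 and 28 bases before Cxcl5. Cxcl10 carried GGGAAATTCC starting 159 bases before its start. The loose form was in 7 members, the 5 above with Cxcl9 and Cxcl12, and in 50.5% of all promoters. ISRE letters were in the promoters of Cxcl10 and Cxcl14 and in 3.13% of all promoters. An AP-1 site (TGANTCA) was found in the promoter of Cxcl10 and in 6.16% of all promoters. TATAAA was in the promoters of Cxcl3, Cxcl9 and Cx3cl1 and in 11.995% of all promoters, and the hypoxia element ACGTG in those of Cxcl1 and Cxcl3 and in 17.4%. These are matches of letters, and no binding was measured in these samples.

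On chromosome 5 (mm9) lie 6 members. Cxcl5 (NM_009141, chr5:91188324-91190651), Cxcl3 (NM_203320, chr5:91215127-91217119), Cxcl1 (NM_008176, chr5:91320271-91322141) and Cxcl2 (NM_009140, chr5:91332925-91334964) follow each other on the plus strand, with gaps of 24.5, 103 and 10.8 kb. Cxcl9 (NM_008599, chr5:92750357-92757105) and Cxcl10 (NM_021274, chr5:92775665-92777915) lie 1415 kb further on, on the minus strand, 18.6 kb apart. Cxcl12 (NM_001012477) is at chr6:117118553-117131386 on the plus strand, Cxcl14 (NM_019568) at chr13:56390006-56397912 on the minus strand, Cxcl16 (NM_023158) at chr11:70267736-70273486 on the minus strand and Cx3cl1 (NM_009142) at chr8:97296080-97306326 on the plus strand. The transcripts of Cxcl2 and Cxcl3 share an identical run of 110 bases, so reads from that run cannot be assigned to one gene with certainty. The longest run that Cxcl1 shares with either is 23 bases. Cxcl10 lies within the span of Art3, and Cxcl16 overlaps Zmynd15 by 363 bases, in both cases on opposite strands. In the exons of all GENCODE vM1 transcripts, which can extend past the deposited rows, the overlap was 133 bases for Cxcl10 and Art3 and 552 bases for Cxcl16 and Zmynd15. The sources used here do not say that counting used the strand.

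**Figure D1:**
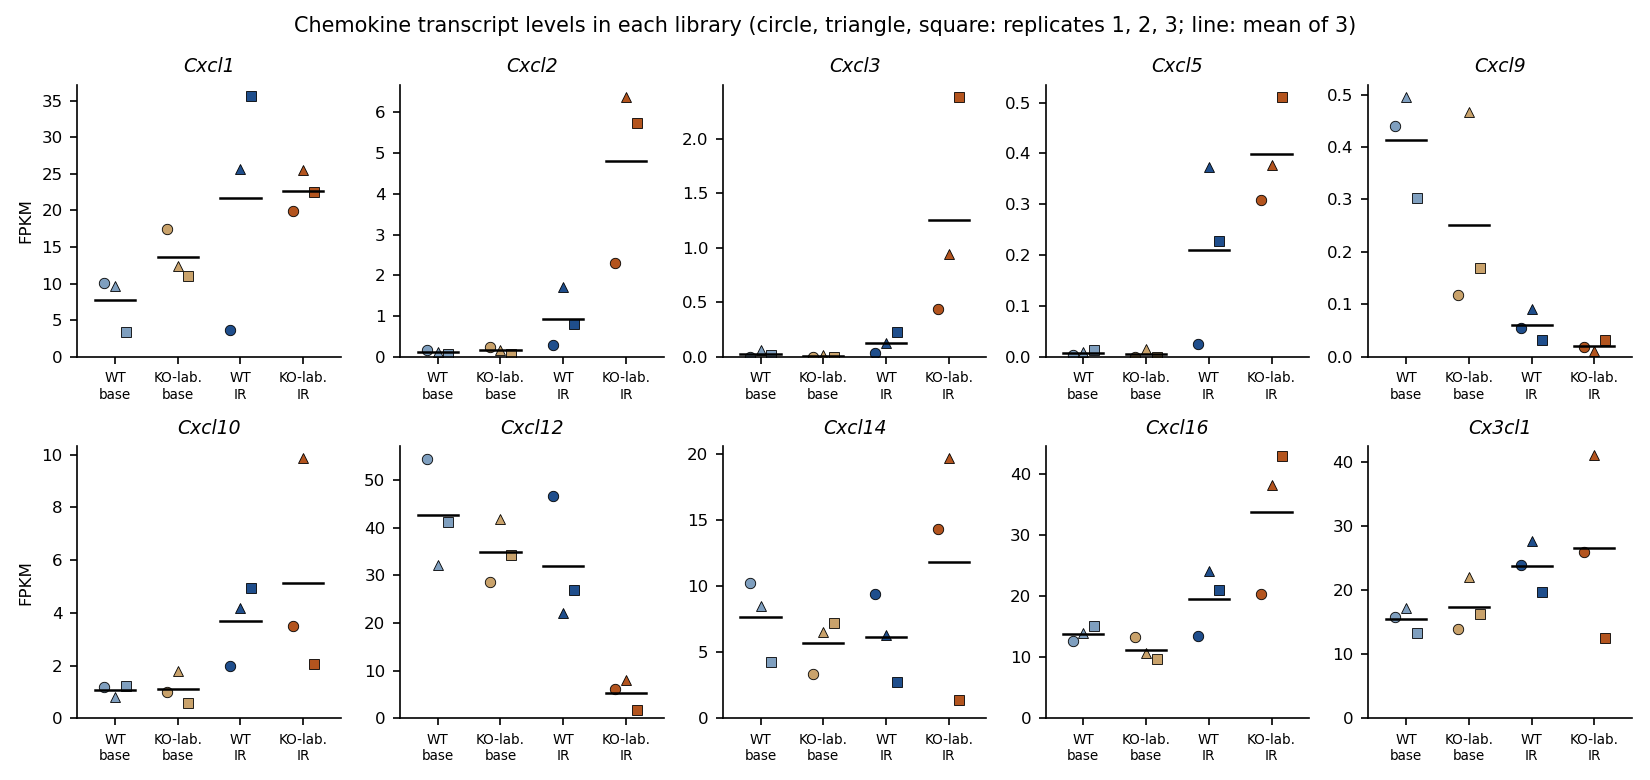
Level of each of the 10 chemokines in FPKM (vertical axes, each panel on its own linear scale from 0) in the 12 libraries, by group (base, baseline; KO-lab., labelled Tet2-/-), with replicates as symbols and the mean of 3 as a line. In the IR kidneys labelled Tet2-/-, all 3 points of Cxcl2 and Cxcl3 lie above those of the other 9 libraries, and all 3 of Cxcl12, at 1.82 to 8.15 FPKM, lie below them.

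The groups were set against each other in 4 comparisons, IR against baseline in each genotype and the Tet2-/- label against WT in each condition, and the difference between the IR effects of the genotypes was tested as an interaction. The 2 comparisons with IR share no libraries, but each of them shares libraries with the comparisons of genotype. Each was fitted on its own libraries by the quasi-likelihood test of edgeR, with p-values adjusted by the Benjamini-Hochberg method across all the genes it tested, and calls needed an adjusted p below 0.05 together with a log2 fold change beyond 1 in either direction. The interaction had no fold change threshold. Errors of log2 fold changes (±) are standard errors, and errors of FPKM means are SD over 3 kidneys. The filter on low counts asks for counts in only some of the libraries, so Cxcl3 and Cxcl5, which were near 0 at baseline, were tested only where IR kidneys carried their counts. Cxcl9 in turn was tested only where baseline kidneys carried them. Genes that pass in this way are likely to differ, so counts that include them support nothing about the members, and for these 3 members the test with no filter on low counts is given. Of the listed genes, Cxcl17, Cxcr2, Cxcr3, Il6, Osm and 5 neutrophil markers were called after passing the filter in the same way. No call of a member, receptor, cytokine or other pathway gene named below ended when the filter was left out.

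In the kidneys labelled Tet2-/-, 7 of 10 members were called after IR, against 24.3% of all 16358 genes tested. Cxcl2, Cxcl3, Cxcl5, Cxcl10 and Cxcl16 rose (12.7% of all genes) and Cxcl9 and Cxcl12 fell (11.6% of all genes). The count includes Cxcl3, Cxcl5 and Cxcl9, which passed the filter through the group where they are high. Of the other 7 members, 4 were called, Cxcl2, Cxcl10 and Cxcl16 as higher and Cxcl12 as lower. The median log2 fold change of all 10, those 3 included, was 1.04, beside 0.04 over all genes. When TMM scaling was replaced by the library sizes alone, the median over all genes moved to 0.27 and the calls over all genes from 2078 higher and 1896 lower to 2860 higher and 1397 lower, and the count of members called was again 7. FPKM values of the groups did not overlap for 6 members that were higher after IR (40.5% of all genes tested) and 2 that were lower (17.9%).

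In WT kidneys, 1 of the 8 members tested was called after IR, Cxcl9, which fell, against 2.35% of the 16015 genes tested (1.46% higher and 0.887% lower). Cxcl9 passed the filter through the baseline kidneys, and 0 of the other 7 were called in edgeR's quasi-likelihood test, where DESeq2 and the exact test called 2 of them. Cxcl3 and Cxcl5 did not pass the filter. Without WT IR replicate 1, the library with the low injury markers, Cxcl3 and Cxcl5 also passed the filter, and 4 of 10 members were called, Cxcl2, Cxcl5 and Cxcl10 as higher and Cxcl9 as lower. Cxcl5 was tested there only because a library was left out, the one with its lowest level after IR, so its call is no support for a difference. In the same fit the calls over all genes went from 234 higher and 142 lower to 365 higher and 183 lower. Leaving out any other single library left 0 members called, since Cxcl9 then missed the threshold, while the calls over all genes went down to 42 to 88 higher and 36 to 54 lower. With the replicate number as a block, 2 members were called, Cxcl9 and Cxcl10 (log2 fold change 1.66, edgeR adjusted p = 0.0429), among 428 higher and 559 lower over all genes. Of the 8 members tested, the groups did not overlap in FPKM for Cxcl2, Cxcl10 and Cx3cl1, which were higher after IR (18.9% of all genes tested), and for Cxcl9, which was lower (10.4%). Those of Cxcl5, which was not tested, did not overlap either. The median log2 fold change of the 8 members tested was 0.49, beside -0.03 over all genes.

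At baseline, 0 of the 8 members tested differed between the labels in edgeR's quasi-likelihood test, where 0.0124% of all genes were called. An unadjusted p below 0.05 was reached by 1 member, Cxcl1, and by 11.8% of all genes. DESeq2, the exact test of edgeR and limma also called 0 members. Cxcl1 was also the only member whose groups did not overlap in FPKM at baseline, a pattern that 3.06% of all genes showed in that direction and 16.5% in the other. After IR, 1 of the 9 members tested was called between the labels, Cxcl12, which was lower in the Tet2-/- label, against 6.15% of all genes (2.30% higher and 3.85% lower). FPKM values did not overlap for Cxcl2 and Cxcl3, which were higher in the Tet2-/- label (22.0% of all genes tested), and for Cxcl12 (14.6% lower). Cxcl12 was also the 1 member of 10 called in the interaction, against 9.16% of all genes (3.78% higher and 5.38% lower). With the replicate number as a block, 2 members were called in the interaction, Cxcl12 (-2.54, edgeR adjusted p = 0.0293) and Cxcl3 (4.79, edgeR adjusted p = 0.0448), among 821 higher and 1016 lower genes. That block gives same-numbered libraries of both labels a shared effect, so it ties the labels to each other as well as baseline to IR. With library sizes alone, the calls of the interaction over all genes went from 633 higher and 901 lower to 1129 higher and 700 lower, and Cxcl12 was still called.

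**Figure D2:**
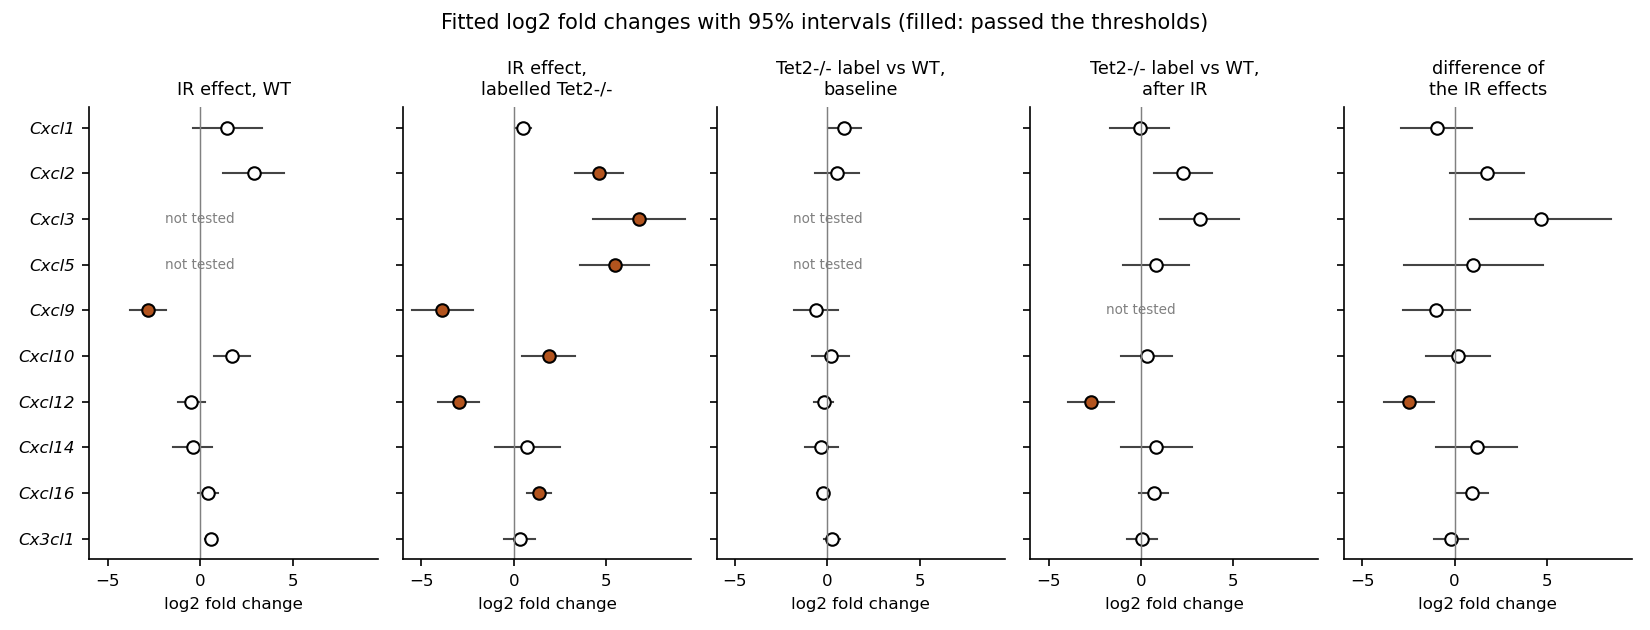
Log2 fold change of each chemokine (horizontal axes) with its 95% interval from edgeR's quasi-likelihood fit in the 5 comparisons; filled circles passed the thresholds. In the kidneys labelled Tet2-/- 7 circles are filled for IR, those of Cxcl3, Cxcl5 and Cxcl9 among them, which passed the filter through 1 group, and 1 each for IR in WT (Cxcl9), for the labels after IR and for the difference of the IR effects (Cxcl12 in both).

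Among the ligands of Cxcr2, Cxcl2 had the largest log2 fold change relative to its standard error after IR in the Tet2-/- label. It was at 0.175, 0.113 and 0.079 FPKM in the WT baseline kidneys and at 0.248, 0.176 and 0.074 FPKM in the baseline kidneys labelled Tet2-/-. After IR it was at 0.281, 1.73 and 0.810 FPKM in WT and at 2.30, 6.37 and 5.73 FPKM in the Tet2-/- label. Every IR kidney thus exceeded every baseline kidney, and every IR kidney labelled Tet2-/- exceeded every WT IR kidney. The rise in the Tet2-/- label was 24.3-fold (log2 fold change 4.60 ± 0.56, edgeR adjusted p = 0.000744). The WT kidneys differed by 2.89 ± 0.70 on the log2 scale and missed the threshold (edgeR adjusted p = 0.0767), but passed it without replicate 1 (3.32, adjusted p = 0.0234). Between the labels after IR the difference of 2.27 missed the threshold (edgeR adjusted p = 0.0774) and passed it with DESeq2 (adjusted p = 0.00376). The difference of the 2 IR effects, 1.74 (95% interval -0.25 to 3.73), did not pass (edgeR adjusted p = 0.239).

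Cxcl3, a close relative of Cxcl2, was almost absent from baseline kidneys. Its counts in the 3 libraries were 0, 6.5 and 2 in WT and 0, 3 and 0 in the Tet2-/- label at baseline, and 2.5, 11 and 18 in WT and 49, 122.5 and 227.5 in the Tet2-/- label after IR. The IR kidneys labelled Tet2-/- were above all others, at 0.436, 0.940 and 2.38 FPKM. The summed counts went from 3 to 399, a ratio of 127 after scaling to depth, with a 95% counting interval of 43.2 to 620, and the fitted log2 fold change was 6.77 ± 1.08. With no filter on low counts, where Cxcl3 is tested whatever its counts, the value was 6.77 as well (edgeR adjusted p = 0.00142). All 3 baseline counts came from 1 library, and leaving out single libraries gave fitted values of 5.79 to 9.95. In WT the summed counts went from 8.5 to 31.5, a ratio of 4.42 (2.16 to 12), with overlapping groups. Such intervals cover counting error only. Without the filter on low counts, the WT difference was 2.12 (edgeR adjusted p = 0.314). The labels after IR differed by 3.18 (edgeR adjusted p = 0.0703), and by 3.21 with DESeq2 (adjusted p = 0.00408). With no filter on low counts they differed by 3.20 (edgeR adjusted p = 0.0674). The difference of the 2 IR effects, 4.67 ± 1.74, missed the threshold (edgeR adjusted p = 0.112). With no filter it was 4.67 as well (edgeR adjusted p = 0.120). It passed with the replicate block (4.79, adjusted p = 0.0448), with DESeq2 (4.85, adjusted p = 0.0366) and with limma on log2(FPKM + 0.1) (2.62, adjusted p = 0.0357). Cxcl3 entered these fits through the IR kidneys labelled Tet2-/-, so their calls are given as a description. Without both WT baseline libraries with high adipocyte markers, which leaves 1 library with 0 counts in that group, the difference of the 2 IR effects was 0.06.

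Cxcl5 showed low counts in the same places. Its 3 baseline libraries of WT held 0.5, 1.5 and 2 counts and those of the Tet2-/- label 0, 4 and 0, against 3, 53.5 and 29.5 in WT and 56.5, 80 and 79.5 in the Tet2-/- label after IR. The ratio of the summed counts in the Tet2-/- label, 216 over 4, was 51.7 (95% counting interval 19.9 to 191), with a fitted log2 fold change of 5.45 ± 0.81, and 5.45 with no filter on low counts (edgeR adjusted p = 0.00135). In WT, 86 over 4 counts gave a ratio of 25.7 (9.67 to 96.3). Unlike Cxcl2 and Cxcl3, the IR kidneys of the labels overlapped, since 0.374 FPKM in WT IR replicate 2 lay above 0.309 FPKM in the lowest kidney labelled Tet2-/-. With no filter on low counts and all 3 WT IR kidneys, Cxcl5 was not called in WT (4.45, edgeR adjusted p = 0.0849). It passed the filter and the threshold without WT IR replicate 1, which had 3 counts, and in the fit of all 12 libraries, where the IR kidneys labelled Tet2-/- brought it past the filter. Both values, 4.97 and 4.46 on the log2 scale, are given as a description.

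Cxcl1, the most abundant of these 4 ligands, followed another course. It was at 10.04, 9.64 and 3.43 FPKM in the WT baseline kidneys and already at 17.5, 12.4 and 11.02 FPKM in those labelled Tet2-/-, so that the groups did not overlap. The difference of 0.91 ± 0.39 on the log2 scale had an unadjusted p of 0.0488 and an adjusted p of 0.424 in edgeR's quasi-likelihood test. After IR, the WT kidneys spread from 3.63 FPKM in replicate 1 to 25.7 and 35.6 FPKM in the others, and the kidneys labelled Tet2-/- were at 19.9, 25.5 and 22.5 FPKM. Neither IR effect passed the thresholds. In WT it was 1.47 (95% interval -0.38 to 3.33), and in the Tet2-/- label 0.47 (0.04 to 0.91). Between the labels after IR the difference was -0.08 (-1.69 to 1.54), and its sign depended on the scaling and on single libraries.

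The levels of the 4 ligands therefore added up to 3.54 to 10.2 FPKM in the WT baseline kidneys, 11.1 to 17.7 FPKM in the baseline kidneys labelled Tet2-/-, 3.97 to 36.9 FPKM in WT after IR and 22.9 to 33.2 FPKM in the Tet2-/- label after IR. Cxcl1 made up most of each sum. Neutrophil marker RNA, measured in the same kidneys, did not overlap between the labels after IR, whereas the summed ligands did. The summed level of 12 neutrophil markers was 0.664 to 2.48 FPKM and 1.93 to 3.19 FPKM at baseline in WT and the Tet2-/- label, 4.11 to 9.47 FPKM in WT after IR and 76.8 to 134 FPKM in the Tet2-/- label after IR, with S100a8 and S100a9 the largest. Of the 9 markers tested, 8 rose after IR in the Tet2-/- label and 7 were higher there than in WT after IR. Mpo and Elane, the granule protein genes of immature neutrophils, were at 0 in all 3 WT IR kidneys and at no more than 0.029 FPKM in any library. The part of these cells in the chemokine levels was not tested.

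Cxcl9, an interferon-induced ligand of Cxcr3, fell after IR under both labels. It was at 0.441, 0.495 and 0.302 FPKM in the WT baseline kidneys and at 0.055, 0.092 and 0.033 FPKM after IR. In the Tet2-/- label it went from 0.117, 0.467 and 0.169 FPKM to 0.019, 0.011 and 0.033 FPKM. No IR kidney reached a baseline kidney. The log2 fold change was -2.83 ± 0.42 in WT (adjusted p = 0.0225, and 0.0192 with no filter on low counts) and -3.87 ± 0.72 in the Tet2-/- label (adjusted p = 0.00442, and 0.00343 with no filter), both from edgeR's quasi-likelihood test, and the difference of the 2 was -0.99 (95% interval -2.80 to 0.81). In WT the call was lost without WT baseline replicate 1, 2 or 3 and without WT IR replicate 2 or 3 in turn (log2 fold changes of -3.20 to -2.59, adjusted p = 0.0563 to 0.0881 from edgeR). Without both WT baseline libraries with high adipocyte markers the log2 fold change was -2.94. The call in the Tet2-/- label held without any single library. It was lost with limma on log2(FPKM + 1) (-0.28, adjusted p = 0.0589), which also left the WT value (-0.41) under the fold threshold.

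Cxcl10, the other interferon-induced ligand, moved in the opposite direction. It was at 1.19, 0.799 and 1.24 FPKM in the WT baseline kidneys and at 1.99, 4.18 and 4.93 FPKM after IR, with no overlap. The kidneys labelled Tet2-/- had 1.01, 1.79 and 0.578 FPKM at baseline and 3.51, 9.87 and 2.06 FPKM after IR, again with no overlap but a wider spread. The rise of 1.88 ± 0.61 in the Tet2-/- label passed (edgeR adjusted p = 0.0400), and it was lost without baseline replicate 1 (adjusted p = 0.118) or 3 (0.115) or IR replicate 1 (0.0544) or 2 (1.10, adjusted p = 0.117). The call was also lost with limma on log2(FPKM + 1) (1.36, adjusted p = 0.0531). In WT the difference of 1.74 ± 0.42 missed the threshold (edgeR adjusted p = 0.0760) and passed without WT IR replicate 1 (2.05, adjusted p = 0.0261) and with DESeq2 (adjusted p = 0.00115). Art3, whose span holds Cxcl10 on the other strand, had counts from 4.72% to 163% of those of Cxcl10, and was at 0.159 to 0.427 FPKM in the WT IR kidneys, below 0.767 to 1.38 FPKM at baseline. In the Tet2-/- label Art3 was at 0.559, 0.585 and 0.408 FPKM at baseline and at 0.355, 0.837 and 0.946 FPKM after IR. Its counts there were 14.8%, 12.4% and 67.3% of those of Cxcl10 after IR, so that the share was highest in the IR kidney with the lowest Cxcl10.

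The cells that these ligands attract left little RNA. The summed level of 9 T and NK cell markers was 1.40 to 4.28 FPKM at baseline and 1.17 to 3.26 FPKM after IR, and none of the 9 had a median above 1 FPKM. Their log2 fold changes after IR were negative in 8 of 9 under both labels, with medians of -1.77 in WT and -1.66 in the Tet2-/- label. Cd247 was the exception and took 0.933 to 1.60 FPKM of the sum in the IR kidneys. After IR, Cd8a and Nkg7 fell and Cd247 rose in the Tet2-/- label. Of 16 interferon response genes tested, 1 rose after IR in WT, Gbp3 (log2 fold change 1.31, edgeR adjusted p = 0.0177), and 2 fell in the Tet2-/- label, Rsad2 (-1.23, adjusted p = 0.00752) and Cxcl11 (-1.92, adjusted p = 0.0304). The call of Gbp3 was lost whenever 1 WT baseline library, or WT IR replicate 2 or 3, was left out (adjusted p = 0.0544 to 0.0710), and that of Cxcl11 without baseline replicate 1 or 2 or IR replicate 2 or 3 (adjusted p = 0.0503 to 0.0954). Rsad2 lost its call on the fold threshold with library sizes alone (-0.99) and with limma at the pseudocounts 1 (-0.67) and 0.1 (-0.94). Cxcl11 lost its call in the same 3 fits (-1.68, -0.20 and -0.93), and Gbp3 in the fit of all 12 libraries (adjusted p = 0.0585). Ifit2 was higher in the interaction (1.29, edgeR adjusted p = 0.0257), a call that was lost without WT baseline replicate 2, baseline replicate 1 or 3 of the Tet2-/- label, or WT IR replicate 1 or 3. Without both WT baseline libraries with high adipocyte markers, the values were 1.09 for Gbp3 and 1.12 for Ifit2. The medians of the list were -0.11 in WT and 0.19 in the Tet2-/- label, beside -0.03 and 0.04 over all genes.

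Cxcl12, a constitutive ligand made by stromal cells and, in the glomerulus, by podocytes, was called both between the labels after IR and in the interaction. It was at 54.5, 32.2 and 41.3 FPKM in the WT baseline kidneys and at 28.6, 41.8 and 34.3 FPKM in those labelled Tet2-/-. After IR it was at 46.7, 22.0 and 27.0 FPKM in WT, and at 6.22, 8.15 and 1.82 FPKM in the Tet2-/- label. The WT IR kidneys overlapped with both baseline groups, and the IR kidneys labelled Tet2-/- lay below every other kidney. The group means were 42.7 ± 11.2 FPKM (SD, n = 3), 34.9 ± 6.65, 31.9 ± 13.0 and 5.40 ± 3.25 FPKM in this order.

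Cxcl12 in the Tet2-/- label was 7.93-fold lower after IR (log2 fold change -2.99 ± 0.47, edgeR adjusted p = 0.00227), and this call held without any single library. In WT the effect was -0.49 (95% interval -1.23 to 0.25, edgeR adjusted p = 0.394). The difference of the 2 effects was -2.46 ± 0.61 (adjusted p = 0.0321), and the difference between the labels after IR was -2.69 ± 0.53 (adjusted p = 0.0278), 6.47-fold lower in the Tet2-/- label, both from edgeR's quasi-likelihood test. Both of these calls depended on single libraries, although the direction did not. The difference after IR lost its call without WT IR replicate 1 (-2.35, adjusted p = 0.0790) or 3 (-2.76, 0.0619), and without IR replicate 1 (-2.84, 0.0811) or 2 (-3.06, 0.0517) of the Tet2-/- label. The interaction lost its call without WT baseline replicate 2 or 3, baseline replicate 2 or 3 of the Tet2-/- label, WT IR replicate 1 or 3, or IR replicate 1 of the Tet2-/- label (-2.62 to -2.12, adjusted p = 0.0510 to 0.0769). Without both WT baseline libraries with high adipocyte markers the difference was -2.16.

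Markers of stromal, endothelial and podocyte cells were measured in the same libraries. In the kidneys labelled Tet2-/-, 7 fibroblast and pericyte markers summed to 23.4 to 51.0 FPKM at baseline and 13.3 to 74.7 FPKM after IR, with 3 of 7 positive and 4 negative and a median log2 fold change of -0.48. The 8 endothelial markers summed to 54.7 to 76.6 FPKM at baseline and 55.4 to 113 FPKM after IR, and 5 of 8 had a positive log2 fold change. The 4 podocyte markers summed to 11.03 to 15.8 FPKM at baseline and 33.9 to 70.0 FPKM after IR, and all 4 rose. In WT all 8 endothelial and all 4 podocyte markers had negative log2 fold changes after IR (medians -0.96 and -0.34), and 0 of them were called by edgeR. WT IR replicate 3 stood apart, with endothelial markers at 13.0 FPKM against 69.0 and 49.0 FPKM in replicates 1 and 2, and podocyte markers at 2.10 FPKM against 20.4 and 19.6 FPKM. Without that library the difference of Cxcl12 between the labels after IR was -2.76, as given above. The 8 endothelial and 4 podocyte markers were all positive between the labels after IR (medians 0.95 and 1.94) and in the interaction (1.42 and 2.21), opposite in sign to Cxcl12, and none was called. The fibroblast and pericyte markers had medians of 0.05 and -0.10 there. IR replicate 3 of the Tet2-/- label, which had the lowest Cxcl12, also had the highest adipocyte markers, and without it the log2 fold change after IR was -2.60. The 8 proximal tubule markers summed to 50506 to 51540 FPKM at baseline and 14385 to 23040 FPKM after IR in the Tet2-/- label. The part of any of these cells in the level of Cxcl12 was not tested.

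The 3 transcript rows of Cxcl12 (NM_013655, NM_021704 and NM_001012477) did not keep the same proportion. The ratio of NM_021704 to NM_013655 was 0.972 to 1.08 in the WT baseline kidneys, 0.894 to 1.09 in those labelled Tet2-/-, 0.856 to 0.942 in WT after IR and 0.496 to 0.741 in the Tet2-/- label after IR. The last group lay below every other kidney. The ratio of NM_001012477 to NM_013655 stayed between 0.577 and 0.637 in all 12 libraries. These ratios were looked at after the values were seen and are given as a description, with no test. The rows are transcripts of 1 gene and can share reads, so they are not separate measurements.

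**Figure D3:**
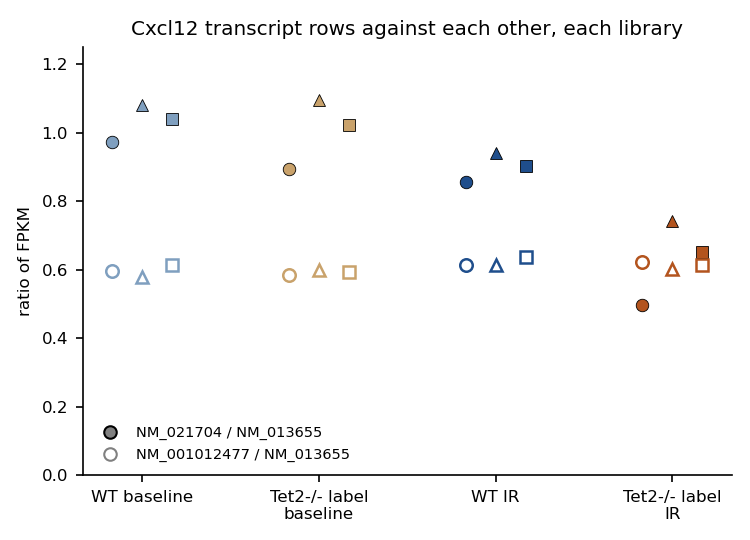
Ratio of FPKM between transcript rows of Cxcl12 (vertical axis, no unit) in each library, with replicates 1 to 3 as circle, triangle and square; filled symbols are NM_021704 over NM_013655 and open symbols NM_001012477 over NM_013655. The filled symbols of the IR kidneys labelled Tet2-/- sit at 0.496 to 0.741, below the 0.856 to 1.09 of the other 9 libraries, and the open symbols stay at 0.577 to 0.637.

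Cxcl14, a constitutive epithelial chemokine, passed no threshold in any comparison. It was at 10.2, 8.502 and 4.29 FPKM in the WT baseline kidneys and at 9.37, 6.30 and 2.72 FPKM after IR. In the Tet2-/- label it was at 3.36, 6.504 and 7.21 FPKM at baseline and at 14.3, 19.7 and 1.35 FPKM after IR, so that the 2 highest and the lowest value of the series stood in 1 group. The lowest was IR replicate 3, the library with the highest adipocyte markers. The same library had the lowest sum of thick ascending limb markers, 387 FPKM against 763 to 2616 FPKM in the other 11, and of distal convoluted tubule markers, 27.2 FPKM against 64.0 to 154 FPKM. The part of these cells in the level of Cxcl14 was not tested. Without it, the log2 fold change after IR went from 0.74 (95% interval -1.02 to 2.49) to 1.2496 and passed (edgeR adjusted p = 0.0182).

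Cxcl16, the membrane-bound ligand of Cxcr6, rose after IR in the Tet2-/- label. It was at 12.6, 13.9 and 15.0 FPKM in the WT baseline kidneys and at 13.4, 24.1 and 20.9 FPKM after IR. In the Tet2-/- label it went from 13.2, 10.6 and 9.66 FPKM to 20.4, 38.2 and 42.8 FPKM, with no overlap. The rise was 2.55-fold (log2 fold change 1.35 ± 0.28, edgeR adjusted p = 0.00708) and held without any single library (1.06 to 1.60). In WT the effect was 0.43 (95% interval -0.10 to 0.97), the difference between the 2 effects 0.95 (0.10 to 1.81, edgeR adjusted p = 0.142) and the difference between the labels after IR 0.70 (-0.08 to 1.48). Counts of the overlapping antisense gene Zmynd15 were 19.2% to 26.2% of those of Cxcl16 in every library. Reads of the 2 genes cannot be told apart in their overlap if strand was not used.

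Cx3cl1, or fractalkine, the only CX3C chemokine and a ligand expressed by endothelium and tubules, stayed within narrower limits. It was at 15.9, 17.2 and 13.3 FPKM in the WT baseline kidneys and at 23.9, 27.7 and 19.7 FPKM after IR, with no overlap. The effect of 0.56 (95% interval 0.23 to 0.88) had an adjusted p of 0.0799 in edgeR's quasi-likelihood test and would not have reached the fold change threshold. Cx3cl1 in the Tet2-/- label was at 13.9, 22.1 and 16.4 FPKM at baseline and 25.97, 41.1 and 12.6 FPKM after IR, with the lowest value again in IR replicate 3, and the effect was 0.32 (-0.51 to 1.14).

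**Figure D4:**
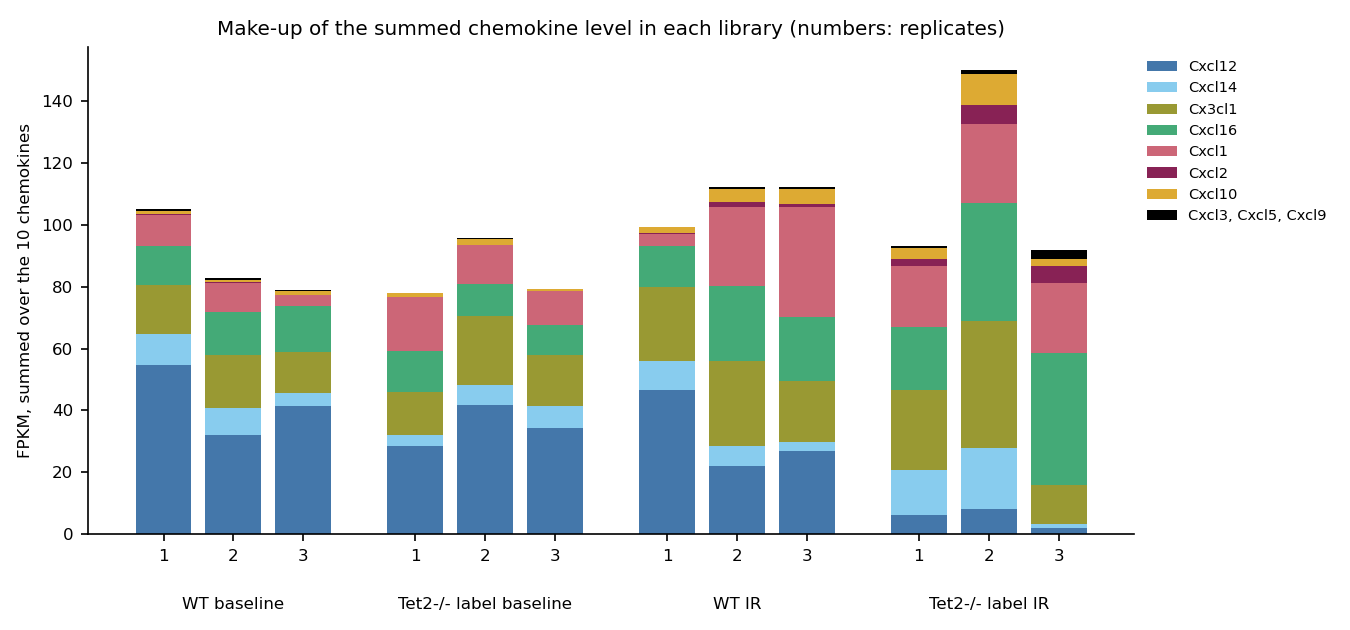
Sum of the FPKM of the 10 chemokines in each library (vertical axis, from 0), split by chemokine, with the replicates of each group side by side. The sums range from 78.0 to 150.1 FPKM. Cxcl12, taken from its row with the highest count, makes up 36.7% to 52.3% of them in the baseline kidneys and 1.98% to 6.67% in the IR kidneys labelled Tet2-/-.

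Over the 10 members the levels summed to 79.0 to 105 FPKM in WT and 78.0 to 95.9 FPKM in the Tet2-/- label at baseline, and to 99.4 to 112 FPKM and 91.8 to 150.1 FPKM after IR. The share of Cxcl12 was 38.8% to 52.3% and 36.7% to 43.6% at baseline, 19.6% to 47.0% in WT after IR and 1.98% to 6.67% in the Tet2-/- label after IR. The share of Cxcl16 was 11.1% to 19.0% at baseline, 13.5% to 21.4% in WT after IR and 21.8% to 46.7% in the Tet2-/- label after IR. The share of Cxcl1 was 4.34% to 22.4% at baseline and 3.65% to 31.7% after IR. Shares sum to a fixed total, so the fall of 1 member raises the others. Sums and shares also depend on the Cxcl12 row used. That row, NM_001012477, was at 54.5 FPKM in WT baseline replicate 1, against 89.1 FPKM for NM_021704 and 91.6 FPKM for NM_013655.

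The receptors were measured in the same kidneys. Cxcr2, the neutrophil receptor of the 4 ligands above, was at 0.013 to 0.034 FPKM in all baseline kidneys. After IR it was at 0.028, 0.076 and 0.063 FPKM in WT and at 1.17, 1.40 and 0.414 FPKM in the Tet2-/- label, where every kidney exceeded every WT kidney. It rose in the Tet2-/- label (log2 fold change 5.57 ± 0.57, adjusted p = 0.000405), was higher there than in WT after IR (4.01 ± 0.59, adjusted p = 0.0148) and was higher in the interaction (4.43 ± 0.79, adjusted p = 0.00913), all from edgeR's quasi-likelihood test. All 3 calls held without any single library, while with limma on log2(FPKM + 1) the first 2 values were 0.94 and 0.88, under the fold threshold, and the interaction was 4.89 without both WT baseline libraries with high adipocyte markers. Neutrophil markers rose in the same libraries, as given above.

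Cxcr3, the receptor of Cxcl9 and Cxcl10 on T and NK cells, went from 0.137, 0.5 and 0.245 FPKM to 0.051, 0.048 and 0.003 FPKM in the Tet2-/- label and fell (-3.38 ± 0.86, edgeR adjusted p = 0.0166). Cxcr6, the receptor of Cxcl16, went from 0.120, 0.453 and 0.197 FPKM to 0.060, 0.076 and 0.014 FPKM and also fell (-2.69 ± 0.71, edgeR adjusted p = 0.0185), while its ligand rose. Both calls were lost without baseline replicate 2 (adjusted p = 0.0620 and 0.0712). The T and NK cell markers moved with these receptors, with negative log2 fold changes in 8 of 9 in the Tet2-/- label, and their part in the lower receptor levels was not tested. In WT the same receptors showed -2.37 and -1.79, and neither passed (adjusted p = 0.140 and 0.291 from edgeR). All of these levels are low, under 1 FPKM, and on the log2(FPKM + 1) scale, which understates changes of low genes, limma called neither receptor in the Tet2-/- label (-0.31 and -0.25).

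Cxcr4, the signalling receptor of Cxcl12, went from 0.763, 1.05 and 0.857 FPKM to 1.97, 3.39 and 1.83 FPKM in the Tet2-/- label with no overlap and rose (1.15 ± 0.29, edgeR adjusted p = 0.0161). The call was lost without baseline replicate 1 (1.04, adjusted p = 0.0593) or 3 (1.13, 0.0622) and without IR replicate 2, where the log2 fold change was 0.90, and with limma on log2(FPKM + 1), which gave 0.82. Ackr3, the scavenger of Cxcl12, was the most abundant receptor, at 10.8 to 22.2 FPKM at baseline and 16.5 to 35.3 FPKM after IR, and its effects of 0.31 in WT (95% interval -0.29 to 0.91) and 0.60 in the Tet2-/- label (-0.21 to 1.41) did not pass. Cx3cr1, the receptor of Cx3cl1 on monocytes and macrophages, was at 0.167 to 0.411 FPKM at baseline and 0.006 to 0.981 FPKM after IR, with effects of 0.62 (-0.93 to 2.17) and -0.21 (-2.64 to 2.21). The 12 macrophage and monocyte markers summed to 42.6 to 86.0 FPKM at baseline, 37.2 to 79.6 FPKM in WT after IR and 69.4 to 256 FPKM in the Tet2-/- label after IR, where Lyz2 alone was at 119.7 FPKM in the highest kidney and at 13.1 and 5.36 FPKM in the others. In the Tet2-/- label Cd14, Cd68 and Itgam rose after IR, while Csf1r, a receptor of macrophages, fell from 30.9, 23.0 and 18.1 FPKM to 4.44, 6.93 and 2.21 FPKM. Cd14 and Cd68 were called higher after IR in WT as well. Cxcr1, Cxcr5 and the Duffy receptor Ackr1 stayed at or below 0.118 FPKM.

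**Figure D5:**
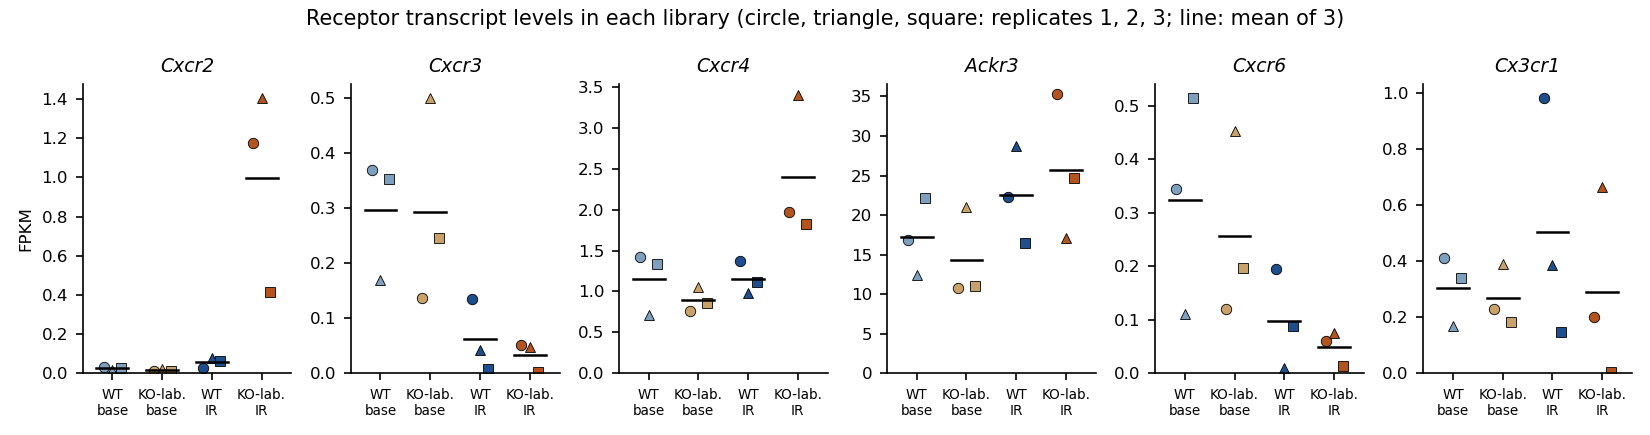
Level of 6 receptors in FPKM (vertical axes, each panel on its own linear scale from 0) in the 12 libraries, by group (base, baseline; KO-lab., labelled Tet2-/-), with replicates as symbols and the mean of 3 as a line. Cxcr2 is at 0.414 to 1.40 FPKM in the IR kidneys labelled Tet2-/- and at no more than 0.076 FPKM in the other 9 libraries, while Cxcr3 and Cxcr6 are lower after IR than at baseline in the Tet2-/- label.

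Beside the members, 6 further CXC ligands were listed, of which 3 rose and 1 fell after IR in the Tet2-/- label and 1 rose in WT. Cxcl17, a mucosal chemokine, went from 0.013 to 0.015 FPKM at baseline to 0.583 to 0.750 FPKM after IR in WT and from 0.014 to 0.071 FPKM to 0.926 to 1.98 FPKM in the Tet2-/- label. It rose under both labels (log2 fold changes of 5.29 ± 0.44, adjusted p = 0.00712, and 5.002 ± 0.58, edgeR adjusted p = 0.000628), and the WT value was 5.19 without both WT baseline libraries with high adipocyte markers. The platelet chemokines Pf4 and Ppbp rose after IR in the Tet2-/- label (2.31, adjusted p = 0.00918, and 1.70, adjusted p = 0.0255), and Ppbp was higher there than in WT after IR (2.72, adjusted p = 0.0192). The call of Ppbp after IR was lost without baseline replicate 1 or 2 or IR replicate 3 (adjusted p = 0.0569 to 0.0796), and that between the labels without WT IR replicate 1 (adjusted p = 0.0712). On the log2(FPKM + 1) scale, limma left Cxcl17 in WT (0.71) and Ppbp in the Tet2-/- label (0.83) under the fold threshold after IR. Cxcl11, which shares Cxcr3 with Cxcl9 and Cxcl10, fell in the Tet2-/- label as given above. Cxcl13, a B cell attractant, was at 0.121, 1.22 and 1.17 FPKM in the IR kidneys labelled Tet2-/- and at most 0.242 FPKM elsewhere, and did not pass (2.43, edgeR adjusted p = 0.0571). Cxcl15 was at most 0.007 FPKM.

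Of 10 listed cytokines that switch on these ligands, 6 were tested in the Tet2-/- label after IR and 5 rose, against 12.7% of all genes. The count includes Il6 and Osm, which passed the filter through the IR kidneys, so it supports nothing about the list. Il6 went from 0.009 to 0.032 FPKM at baseline to 2.36, 1.17 and 0.607 FPKM after IR (5.53 ± 0.71, edgeR adjusted p = 0.000953), and was at 0.013 to 0.101 FPKM in the WT IR kidneys. Il1b rose by 2.51 (adjusted p = 0.0105), Osm by 2.92 (0.007135) and Lif by 5.58 (0.00233) on the log2 scale. Lif was the most abundant of them, at 12.9, 7.4 and 1.18 FPKM in the IR kidneys labelled Tet2-/- and 0.299, 4.24 and 0.854 FPKM in the WT IR kidneys, against 0.055 to 0.178 FPKM at baseline. Il1b reached 2.22, 4.84 and 1.92 FPKM in the IR kidneys labelled Tet2-/-, against at most 0.612 FPKM elsewhere. Tnf rose by 2.42 (edgeR adjusted p = 0.0487), a call lost whenever 1 baseline library, or IR replicate 1 or 2, was left out (adjusted p = 0.0638 to 0.159), and also with upper quartile scaling (0.0514) and limma at the pseudocounts 1 (0.155) and 0.1 (0.0808). On the log2(FPKM + 1) scale Osm was at 0.27 in limma, under the fold threshold. Il1a did not pass (-0.57, edgeR adjusted p = 0.345).

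Between the labels after IR, Il6 (4.56, adjusted p = 0.0228), Il1b (2.59, adjusted p = 0.0194) and Osm (2.45, adjusted p = 0.0269) were higher in the Tet2-/- label in edgeR's quasi-likelihood test. Each of these lost its call without WT IR replicate 1 (adjusted p = 0.0691, 0.0678 and 0.103). Il6 also lost it without WT IR replicate 2 or IR replicate 1 of the Tet2-/- label (adjusted p = 0.0607 and 0.0628), and Osm without WT IR replicate 3 or any IR library of the Tet2-/- label (0.0606 to 0.0917) and, on the fold threshold, with limma on log2(FPKM + 1) (0.26). The interferons that induce Cxcl9 and Cxcl10 were not tested for lack of counts, with Ifng at no more than 0.053 FPKM and Ifnb1 at no more than 0.026 FPKM. Il17a was at 0 in all 12 libraries.

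NF-kB is the transcription factor whose stricter form of letters stands in 5 of the promoters above. Of 13 genes of its pathway, 6 rose after IR in the Tet2-/- label, against 12.7% of all genes. These were the subunits Relb (2.01, adjusted p = 0.000879), Nfkb2 (1.502, 0.00104) and Rel (2.35, 0.0204), the kinase scaffold Ikbkg (1.14, 0.000781), and the inducible regulators Nfkbiz (1.58, 0.00201) and Tnfaip3 (1.44, 0.00493), each given as its log2 fold change and its edgeR adjusted p. Rel lost its call whenever 1 baseline library, or IR replicate 1 or 2, was left out (adjusted p = 0.0523 to 0.0705). With limma on log2(FPKM + 1), Rel (0.23) and Tnfaip3 (0.96) were not called. The median over the 13 genes was 0.98, beside 0.04 over all genes, and in WT it was 0.38, beside -0.03.

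Some proteins change what these ligands do after they are made. Adam10 and Adam17, which shed Cxcl16 and Cx3cl1, stayed at 9.53 to 19.4 FPKM and 7.29 to 10.7 FPKM and were called in no comparison. Mmp9, a neutrophil gelatinase that trims several CXC ligands, was at 0.024 to 0.087 FPKM at baseline, 0.048 to 0.152 FPKM in WT after IR and 1.61, 2.83 and 0.469 FPKM in the Tet2-/- label after IR, where it rose (4.31, edgeR adjusted p = 0.00273). Sdc1, a heparan sulfate proteoglycan that binds chemokines, went from 3.45, 2.19 and 2.55 FPKM to 17.7, 35.0 and 15.6 FPKM in the Tet2-/- label and rose as well (2.78, adjusted p = 0.000518).

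Both were higher in the Tet2-/- label than in WT after IR and in the interaction. For Mmp9 the differences were 4.10 (adjusted p = 0.0218) and 3.52 (0.0466), and for Sdc1 1.28 (0.0406) and 1.89 (0.0182), all from edgeR's quasi-likelihood test. Leaving out single libraries ended the call of Sdc1 after IR in 6 of 6 fits, that of Mmp9 after IR in 4 of 6 (without WT IR replicate 1 or 3 or IR replicate 1 or 2 of the Tet2-/- label, adjusted p = 0.0505 to 0.0812) and that of Mmp9 in the interaction in 10 of 12, all but those without WT IR replicate 2 or IR replicate 3 of the Tet2-/- label. Sdc1 lost its interaction call without baseline replicate 3 of the Tet2-/- label (adjusted p = 0.0513). Dpp4, the peptidase that inactivates Cxcl12, Cxcl9 and Cxcl10 by removing their first residues, had an IR effect of 0.25 in WT and -0.86 in the Tet2-/- label and was lower in the interaction (-1.07, edgeR adjusted p = 0.0440), a call that, among the fits leaving out 1 library, was kept only in those without WT baseline replicate 2 or 3 or replicate 2 of either IR group. Dpp4 also lost it with library sizes alone (-0.94, adjusted p = 0.0641) and with limma at the pseudocounts 1 and 0.1 (adjusted p = 0.0811 and 0.0726). With limma at 1, Sdc1 after IR (adjusted p = 0.0624) and Mmp9 after IR (0.0678) and in the interaction (0.0636) missed the threshold, and Sdc1 after IR missed it at 0.1 too (0.0508). Without both WT baseline libraries with high adipocyte markers, the interactions were 4.18 for Mmp9, 1.38 for Sdc1 and -1.03 for Dpp4.

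The genes with the most similar pattern to the called members other than Cxcl9 were named by the smallest root mean square difference over the 12 libraries, between centred values of log2(FPKM + 0.1), among 12932 or 12933 genes with a mean of at least 1 FPKM in some group. For Cxcl2 these were Adam8 (0.357) and Fcrlb (0.438), and for Cxcl3 Gml2 (0.306) and Oasl1 (0.372). Cxcl5 was closest to Steap2 (0.236) and Mvp (0.244), and Cxcl10 to Cpb2 (0.412) and Ung (0.413). Cxcl12 was closest to Acss2 (0.364) and Slc4a1 (0.369), the latter a collecting duct gene that also fell after IR in the Tet2-/- label. Cxcl16 was closest to its overlapping neighbour Zmynd15 (0.133) and to Serpinb9 (0.180). These differences compare with a spread of the members themselves, around their own mean, of 0.655 for Cxcl16 to 1.85 for Cxcl2 on the same log2 scale.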

How the data were processed

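Total RNA (TRIzol) from 12 mouse kidneys was sequenced. The authors aligned reads to mm9 with STAR and counted RefSeq transcripts with HOMER; versions, read length and use of strand are not given in the sources used here. The authors deposited expected counts in steps of 0.5, of which 38.7% were not whole and which were rounded here for count tests, and the FPKM per transcript that the authors computed, used here for levels. Groups and replicate numbers came from the labels. The 10 members, the gene lists and the rule for named genes (all members, listed genes that were called, and the 2 genes most similar to each called member) were chosen with earlier results of these data known. The genes most similar to Cxcl9 and 1 of the motifs searched are not reported here.

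Each comparison was fitted on its own 6 libraries, or 12 for the interaction, with edgeR 4.0.16 (TMM, filterByExpr, quasi-likelihood test, Benjamini-Hochberg adjustment) in R 4.3.3, after tests on simulated data. Alternatives used DESeq2 1.42.0, limma 3.58.1 on log2(FPKM + 1) and log2(FPKM + 0.1), edgeR's exact test, other scalings and filters, a replicate block, and fits without single libraries. Same-numbered baseline and IR libraries deviated together (by correlations of 0.380, 0.363 and 0.358 for replicates 1 to 3 of WT, and 0.135, 0.359 and 0.222 for the Tet2-/- label), so the numbers were taken to pair them, from these correlations alone, since each kidney came from another mouse. The labels do not say how replicates were raised or processed, and p-values measure only the spread between 3 kidneys a group. Promoters were read from the mm9 genome at the transcript starts in the deposited rows. Python 3.11.15 with scipy 1.17.1 and matplotlib 3.10.9 was used for intervals and figures.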

Additional observations from a re-analysis of the deposited data

Results flagged for a closer look

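For 1 member, Cxcl12, the effect of IR differed between the genotypes in a test of that difference, which is 1 of 10 members against 9.16% of all genes tested. Its IR effect was -2.99 on the log2 scale in the kidneys labelled Tet2-/- and -0.49 in WT, and the difference of -2.46 (95% interval -3.80 to -1.12) passed the interaction test of edgeR (adjusted p = 0.0321). Leaving out single libraries gave differences of -2.89 to -2.06 with adjusted p = 0.0200 to 0.0769.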

How the results depend on the processing

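Against the 1 member called after IR in WT, DESeq2 and edgeR's exact test called 3, Cxcl2 and Cxcl10 besides Cxcl9. The fit of all 12 libraries called 3 too, Cxcl2, Cxcl5 and Cxcl9. Cxcl5 passed the filter there through the IR kidneys labelled Tet2-/-, so its call is no support for a difference in WT. The replicate block called 2, and limma on log2(FPKM + 1) and a mean FPKM of at least 1 called 0. With the FPKM minimum the 0 is void, since it removes Cxcl9. The fit without both WT baseline libraries with high adipocyte markers leaves 1 library in that group, so its count is void. Leaving out single libraries gave 0 to 4. In the kidneys labelled Tet2-/- limma on log2(FPKM + 1) called 4 members instead of 7, a mean FPKM of at least 1, which removes Cxcl5 and Cxcl9, 5, and leaving out single libraries 6 to 8. Between the labels after IR, DESeq2, the exact test, the fit of all 12 libraries and the replicate block called 3 instead of 1, limma on log2(FPKM + 0.1) called 2, and leaving out single libraries 0 to 1. In the interaction, DESeq2, limma on log2(FPKM + 0.1) and the replicate block called 2 instead of 1, Cxcl3 besides Cxcl12, the fit without both high-adipocyte libraries 0 (10 of all 17237 genes, void likewise), and leaving out single libraries 0 to 1. At baseline each alternative called 0 members. The causes were not tested.

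Over all genes, DESeq2 called 488 higher and 490 lower after IR in WT, 23 and 298 between the labels at baseline, 775 and 879 after IR, and 1209 and 1599 in the interaction. The exact test called 495 and 464, 19 and 271, and 754 and 851 in the first 3 of these, against 234 and 142, 2 and 0, and 373 and 623 in the quasi-likelihood test. Without WT IR replicate 1, 65 and 229 genes were called between the labels after IR and 234 and 485 in the interaction. The fit of all 12 libraries called 373 and 258 genes after IR in WT, and 714 and 879 between the labels after IR. After IR in the Tet2-/- label, limma on log2(FPKM + 1) called 1440 and 816, and a mean FPKM of at least 1 gave 1484 and 1445, against 2078 and 1896. With limma on log2(FPKM + 0.1), 476 and 526 genes were called between the labels after IR and 1126 and 681 in the interaction.

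Between labels, same-numbered libraries had correlations of -0.186, -0.167 and 0.071 at baseline and 0.003, 0.230 and 0.320 after IR. The values of 0.230 and 0.320 lie within the 0.135 to 0.359 between baseline and IR in the Tet2-/- label, so pairing between labels after IR is undecided. With the block, 477 and 616 genes were called between the labels after IR and Cx3cl1 changed sign (-0.0802). After IR in WT, where the numbers were taken to pair the libraries, the block called 428 and 559 genes. In the Tet2-/- label the block changed no call of a member after IR.

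Values near 0 that changed sign were Cxcl1 between the labels after IR (0.0574 with library sizes alone, 0.51 and 0.58 with limma at the pseudocounts 1 and 0.1, 0.41 with the block, -0.58 to 0.59 without single libraries), Cxcl10 at baseline (-0.042 with limma at 0.1, -0.34 to 0.47), after IR (-0.49 to 0.65) and in the interaction (-0.68 to 0.63), Cx3cl1 after IR in the Tet2-/- label (-0.0558 to 0.62), between the labels after IR (-0.35 to 0.34) and in the interaction (-0.65 to 0.11), and Cxcl12 at baseline (-0.36 to 0.0116). In the interaction Cxcl9 was 0.13 and 0.27 with limma, and Cxcl5 -2.66 without both high-adipocyte libraries. None of these passed a test. Of the comparisons of members under alternatives, 787 kept direction and side of the threshold, 26 lost and 21 gained a call, and 23 changed sign. With 3 kidneys a group, low counts of Cxcl3, Cxcl5 and Cxcl9 limit what could be detected.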
